A study of Mus musculus with 4 samples.

Results

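Cells make fat from citrate and acetate in 1 connected route, and this account follows 34 genes of that route through the mammary gland of transgenic mice with and without stathmin. The members were chosen by function, from carbon export and NADPH supply through fatty acid synthesis, elongation and desaturation to triglyceride assembly, by a rule that uses no measured value, although earlier results of these data were known. A probe was assigned to a member when its accession matched that gene in mouse RefSeq, and the probe with the highest mean over the 4 arrays stood for the gene. Of the 34 genes, 33 had such a probe, all 33 were well above background on all 4 arrays, and all 33 were tested, among 13205 genes tested in all. Pck1, which encodes the phosphoenolpyruvate carboxykinase that feeds glycerol synthesis in fat cells, had no matching probe and has no value here.

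Both groups were female mice 13 weeks old bearing the Δ16HER2 transgene, which encodes an oncogenic splice variant of the human receptor tyrosine kinase HER2, and their glands were taken at the pre-neoplastic stage. The wild-type group (WT 1 and WT 2) kept the gene for stathmin, a protein that binds tubulin and destabilises microtubules, and the knockout group (knockout 1 and knockout 2) lacked it. The promoter of the transgene and the construction of the knockout are not given in the sources used here, and every mouse carried the transgene, so no value below describes a gland without it. Whether the 4 samples are 4 animals is not stated in the labels, and the p-values measure only the spread between these samples, which may be technical.

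De novo lipogenesis starts when citrate leaves the mitochondrion and is cleaved to acetyl-CoA, which acetyl-CoA carboxylase and fatty acid synthase turn into palmitate with NADPH as the reducing agent. Elongases and desaturases then lengthen and unsaturate the chain, and acyltransferases load it onto glycerol to make triglyceride. The transcription factors SREBP-1c and ChREBP switch the route on in response to insulin and sugar. In the mammary gland it runs in the fat pad's adipocytes and, once milk is made, in the secretory epithelium.

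Each array carried Cy3-labelled RNA of 1 sample, and 54.7% to 66.2% of its spots were well above background. Levels are log2 processed signal minus the array's 75th percentile, and a difference is the knockout mean minus the wild-type mean on that log2 scale, with its standard error from limma over 2 arrays per group. Levels of different probes are not set against each other as expression, and probe brightness is used below only to sort probes. The brighter probe for Stmn1, the stathmin gene, read 5.59 and 3.59 on WT 1 and WT 2 and 4.56 and 3.34 on knockout 1 and knockout 2, with overlapping groups, so it does not separate the libraries as labelled. A dimmer Stmn1 probe read -1.13 and -3.39 on WT 1 and WT 2 and -5.71 and -5.05 on knockout 1 and knockout 2. Both knockout readings were below both wild-type readings. The probe was well above background on WT 1 alone, however, so it gives no bound on a difference between the groups. The files do not say whether either probe lies in the deleted part, and the groups below are those of the labels. Both Adipoq, the fat cell hormone adiponectin (6.69 to 7.28), and Krt8, a luminal keratin (4.65 to 5.38), were well above background on every array, whereas the labels call the tissue epithelial and a description field names EOC cells. All 4 arrays lay on 1 slide with the wild-type samples in the first positions, and the position on the slide and the genotype cannot be told apart.

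Most genes of the route read higher in the knockout group, but none passed the test. The difference was positive for 24 of 33 members (background 49.3%) and negative for 9, with a median of 0.40 and a range from -0.94 for Pgd to 1.16 for Slc25a1, against a median of -0.01 over all genes tested. For 15 members the lower knockout array exceeded the higher wild-type array, as it did for 17.8% of all genes tested, and 1 member showed the reverse order, as did 17.7%. An unadjusted p under 0.05 was reached by 4 members that were higher (Slc25a1, Scd2, Thrsp and Agpat2; background 1.14%) and by 1 that was lower (Pgd; background 2.41%). After Benjamini-Hochberg adjustment over all probes, limma gave members adjusted p-values from 0.936 to 0.997, and the share of all genes called was 0%. In tissue RNA, fewer cells of a type and less RNA per cell cannot be told apart.

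**Figure D1:**
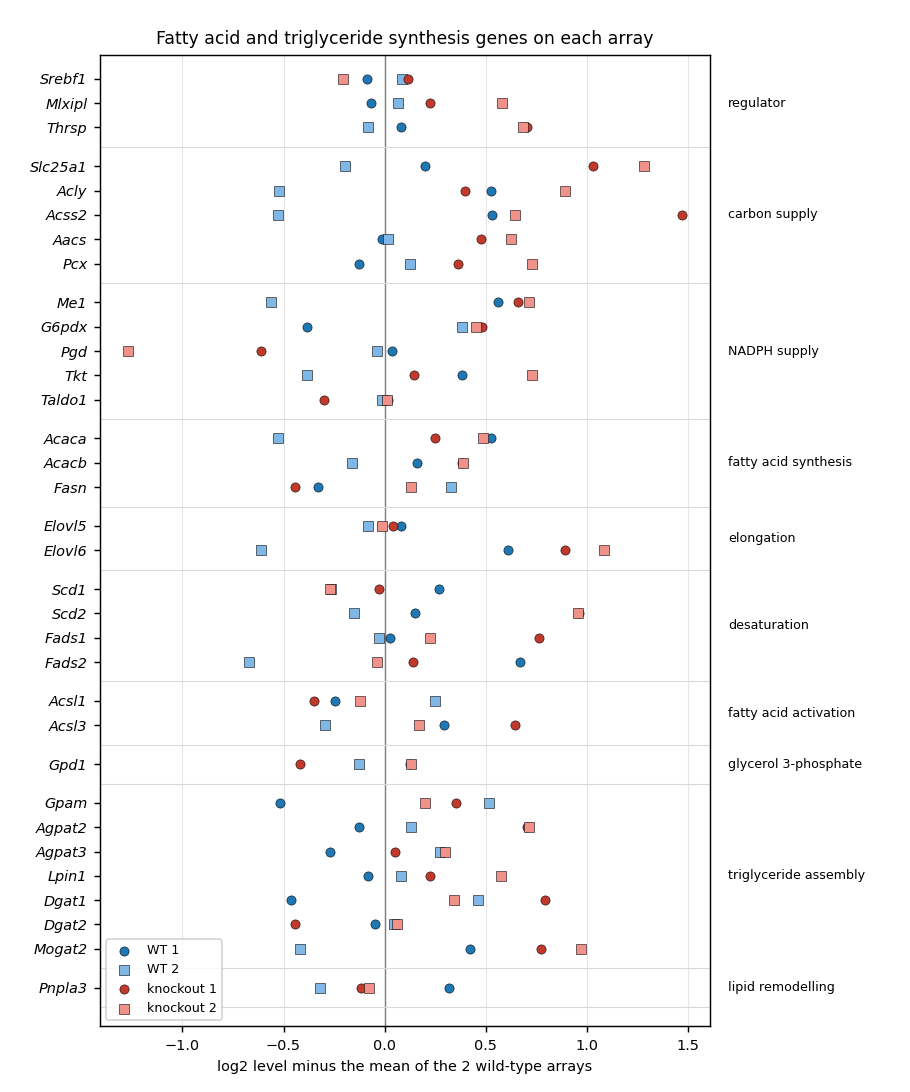
Level of each gene on each array, as log2 level minus the mean of the 2 wild-type arrays (horizontal axis), with genes grouped by role; blue marks are wild type and red marks knockout, circles replicate 1 and squares replicate 2. For 15 genes both red marks lie right of both blue marks, for Pgd both lie left, and WT 2 is the leftmost mark of 16 genes.

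The regulators came first in the order of the route. Srebf1 encodes SREBP-1, the factor that drives transcription of most lipogenic enzymes. Its levels, given here and below in the order WT 1, WT 2, knockout 1 and knockout 2, were 5.76, 5.94, 5.96 and 5.65. The knockout arrays gave both the highest and the lowest of these, and the difference was -0.04 ± 0.26 (SE). Mlxipl encodes ChREBP, the sugar-responsive factor, and read 4.98, 5.11, 5.27 and 5.63. Both knockout arrays were above both wild-type arrays, by 0.40 ± 0.26 on average, and a second Mlxipl probe differed by 0.35 in the same direction. Thrsp encodes Spot 14, a small lipogenic protein whose expression follows carbohydrate and thyroid hormone, and read 5.40, 5.24, 6.02 and 6.01. The knockout arrays lay within 0.02 of each other and above both wild-type arrays, a difference of 0.70 ± 0.24 or 1.62-fold (unadjusted p = 0.0321; limma adjusted p = 0.936).

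Promoter sequence was available for 27 members, in 35 windows of 300 bases that run from 250 before to 50 after an annotated start (RefSeq, GRCm38.p6). Shown are the 250 bases before the start of Slc25a1 and Thrsp, both among the 4 members with the lowest p among those higher in the knockout group, and of Fasn, whose probes disagreed. A stretch of 69 bases before the second Mlxipl start is shown because it holds 1 of the few sterol-element matches. Sequences are written 5′ to 3′ on the gene's strand, and capitals mark matches to CCAAT on either strand, to the E-box CACGTG and to the sterol element TCACNCCAC.
Slc25a1, chr16:17928220-17928469, minus strand: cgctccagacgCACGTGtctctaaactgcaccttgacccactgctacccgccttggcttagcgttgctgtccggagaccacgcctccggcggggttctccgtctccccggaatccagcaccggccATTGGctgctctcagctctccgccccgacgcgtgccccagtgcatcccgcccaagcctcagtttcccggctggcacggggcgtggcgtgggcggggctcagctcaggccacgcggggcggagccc
Thrsp, chr7:97417551-97417800, minus strand: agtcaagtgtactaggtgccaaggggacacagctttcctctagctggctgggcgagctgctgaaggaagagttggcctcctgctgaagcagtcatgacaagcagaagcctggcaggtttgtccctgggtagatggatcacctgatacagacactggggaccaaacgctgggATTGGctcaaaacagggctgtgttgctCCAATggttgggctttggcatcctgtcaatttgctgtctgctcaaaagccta
Fasn, chr11:120824548-120824797, minus strand: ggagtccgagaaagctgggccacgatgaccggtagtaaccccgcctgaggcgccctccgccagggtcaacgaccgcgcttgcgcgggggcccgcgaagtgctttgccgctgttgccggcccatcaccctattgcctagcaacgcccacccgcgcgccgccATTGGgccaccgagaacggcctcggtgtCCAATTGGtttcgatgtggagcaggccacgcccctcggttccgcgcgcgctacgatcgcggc
Mlxipl, chr5:135106725-135106793, plus strand: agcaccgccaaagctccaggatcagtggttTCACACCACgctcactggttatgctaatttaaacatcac
The CCAAT box, the motif of the factor NF-Y that works beside SREBP-1, was the commonest of those marked. It lay at -79 and -52 in Thrsp, at -90 and -62 in Fasn, with an overlapping reverse match at -59, and at -125 in Slc25a1, counted from the first base before the start as -1. Searched on both strands, CCAAT occurred in the windows of 17 of the 27 members (63%), against 42.5% of 10511 tested genes with a window and 41.1% of all 27025 genes with a window. Among the 12 members with a window that were higher on both knockout arrays the share was 58.3%. Among the other 15, which include Pck1 although it has no measured value, it was 66.7%. The sterol regulatory element TCACNCCAC (GTGGNGTGA on the other strand), bound by SREBP, was found in 2 members (7.41%), at -136 in Mlxipl and at -76 in a second window of Acsl1, against 1.52% of tested genes with a window. The E-box CACGTG, bound by USF among others, occurred in 4 members (14.8%; Slc25a1, Mlxipl, Elovl5 and Pcx) against 11.4% of tested genes, and the GC box GGGCGG, bound by Sp1, in 18 members (66.7%) against 65.7%. A match describes these letters in this window and not binding.

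The genes that supply carbon all had positive differences, 5 of 5 measured (background 49.3%), with a median of 0.64. That median was 1.17 without WT 1, 0.57 without WT 2, 0.73 without knockout 1 and 0.48 without knockout 2. For 4 of these genes both knockout arrays were above both wild-type arrays (background 17.8%). Slc25a1, the mitochondrial citrate carrier through which acetyl units leave for the cytosol, read 4.53, 4.13, 5.36 and 5.62. The lowest knockout array was 0.83 above the highest wild-type array, and the difference of 1.16 ± 0.28, or 2.23-fold, was the largest of any member (unadjusted p = 0.00767; limma adjusted p = 0.936). Acly, the ATP citrate lyase that splits the exported citrate, read 2.96, 1.91, 2.83 and 3.33. Its groups overlapped, since WT 1 was above knockout 1 and only WT 2 was low, and the difference was 0.64 ± 0.43. Without WT 2 the Acly difference was 0.12.

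Acss2, the cytosolic acetyl-CoA synthetase that activates acetate, read 2.75, 1.69, 3.69 and 2.87. Both knockout arrays were higher, knockout 2 by little, and the difference was 1.06 ± 0.48. A dimmer Acss2 probe for the same accession read -2.18, -1.14, 1.30 and 0.55. There the groups lay further apart, by 2.59 ± 0.46, the largest difference of any member probe (unadjusted p = 0.00209; limma adjusted p = 0.936). Aacs, which activates acetoacetate so that ketone carbon can enter lipid, read 5.47, 5.50, 5.96 and 6.11. Pcx, the pyruvate carboxylase that refills mitochondrial oxaloacetate, read 5.39, 5.64, 5.88 and 6.25. Neither gene overlapped between groups, and both differed by 0.55, with standard errors of 0.24 for Aacs and 0.27 for Pcx.

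The NADPH suppliers did not move as a block, with 3 of 5 positive (background 49.3%) and a median of 0.44. That median was 0.09 without WT 1, 0.05 without WT 2, 0.45 without knockout 1 and 0.14 without knockout 2. Me1, malic enzyme, which makes NADPH as it returns malate carbon to pyruvate, read 4.58, 3.46, 4.68 and 4.73. The knockout arrays were only just above WT 1 and far above WT 2, so the difference of 0.69 ± 0.42 fell to 0.12 without WT 2. G6pdx, the glucose 6-phosphate dehydrogenase that opens the pentose phosphate pathway, read 4.57, 5.34, 5.44 and 5.41. Here WT 1 was the low array, and the difference of 0.47 ± 0.33 became 0.09 without WT 1. Pgd, the next dehydrogenase of that pathway, read 4.68, 4.60, 4.03 and 3.37. It was the single member lower on both knockout arrays, by -0.94 ± 0.31 (unadjusted p = 0.0274; limma adjusted p = 0.936). A second, dimmer Pgd probe annotated with the same accession gave the opposite order, 2.83, 3.03, 3.51 and 3.61, a difference of 0.63 ± 0.25 with no overlap (unadjusted p = 0.0478; limma adjusted p = 0.936). The direction for Pgd therefore depends on the probe, and the files do not say which transcripts each probe reads. Of the enzymes that rearrange pentose phosphates, transketolase (Tkt) ranged from 5.98 to 7.10 with a difference of 0.44 ± 0.38 and overlapping groups, while its dim second probe differed by 0.91 without overlap. Transaldolase (Taldo1) ranged from 6.43 to 6.75 and differed by -0.14 ± 0.25.

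Fatty acid synthesis proper showed no common direction on the brightest probes. Acaca, the acetyl-CoA carboxylase that makes malonyl-CoA for synthesis, read 3.68, 2.63, 3.41 and 3.64. WT 1 was the highest array and WT 2 the lowest, and the difference was 0.37 ± 0.41 with all arrays and -0.16 without WT 2. The other Acaca probes differed by 0.43, 0.45 and -0.04, all with overlapping groups. Acacb, the carboxylase isoform at the mitochondrion whose malonyl-CoA restrains fatty acid oxidation, read 4.07, 3.75, 4.29 and 4.30, higher on both knockout arrays by 0.39 ± 0.26. Fasn, the fatty acid synthase itself, read 7.77, 8.43, 7.66 and 8.23. Knockout 1 was the lowest and WT 2 the highest array, a difference of -0.16 ± 0.36. A dimmer Fasn probe with the same accession read 5.57, 4.63, 5.89 and 6.17, higher on both knockout arrays by 0.93 ± 0.38 (unadjusted p = 0.0567; limma adjusted p = 0.936). On WT 2 the brighter Fasn probe had its highest value and the dimmer one its lowest.

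Elongation and desaturation held the next 2 largest differences after Slc25a1 and Acss2. Elovl6, the elongase that takes palmitate to stearate, read 4.59, 3.37, 4.88 and 5.07. Both knockout arrays were higher, but WT 2 alone lay far below the rest, and the difference of 0.99 ± 0.45, or 1.99-fold, was 0.38 without WT 2. Elovl5, which elongates polyunsaturated chains, ranged from 2.80 to 2.96 and differed by 0.01 ± 0.24. The stearoyl-CoA desaturases place the first double bond, and their isoforms did not match. Scd2 read 4.67, 4.37, 5.48 and 5.47, with the knockout arrays 0.01 apart and above both wild-type arrays. The Scd2 difference was 0.96 ± 0.25, or 1.94-fold (unadjusted p = 0.0115; limma adjusted p = 0.936), and it was 0.81 without WT 2. Scd1, the main isoform of adipose tissue and liver, read 4.51, 3.98, 4.22 and 3.97, with overlapping groups and a difference of -0.15 ± 0.30. The difference between the Scd1 and Scd2 differences was not tested. Fads1, the delta-5 desaturase of polyunsaturated fatty acids, read 1.66, 1.61, 2.40 and 1.86, higher on both knockout arrays by 0.49 ± 0.29. Fads2, the delta-6 desaturase, read 0.47, -0.86, -0.06 and -0.23. Its wild-type arrays lay 1.34 apart, the widest gap within a group for any member, with both knockout arrays between them and a difference of 0.05 ± 0.48.

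Fatty acids are activated to acyl-CoA before they are esterified. Acsl1, the main acyl-CoA synthetase of adipocytes, ranged from 6.06 to 6.66 and differed by -0.24 ± 0.29. Acsl3, the synthetase found on lipid droplets and endoplasmic reticulum, ranged from 0.17 to 1.11 and differed by 0.41 ± 0.33, and both genes had overlapping groups. Gpd1, which makes the glycerol 3-phosphate backbone from a glycolytic intermediate, ranged from 6.90 to 7.45 on its brightest probe and differed by -0.15 ± 0.30. Its other probe read 2.08, 1.39, 1.93 and 2.80, also with overlap, a difference of 0.63 ± 0.42.

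Triglyceride assembly had positive differences for 6 of 7 genes (background 49.3%), with a median of 0.40. Without WT 1, however, the median was 0.11 and 4 of 7 were positive. Gpam, the mitochondrial acyltransferase that adds the first acyl chain to glycerol 3-phosphate, ranged from -1.45 to -0.42 and differed by 0.28 ± 0.40. The Gpam value turned on the wild-type array kept, 0.79 without WT 2 and -0.24 without WT 1. Agpat2, the acyltransferase for the second chain whose loss causes lipodystrophy in humans, read 3.47, 3.73, 4.30 and 4.31. Its knockout arrays were 0.01 apart and above both wild-type arrays, by 0.71 ± 0.25 or 1.64-fold (unadjusted p = 0.0333; limma adjusted p = 0.936), and its second probe differed by 0.63, also without overlap. Agpat3, a relative with activity toward lysophospholipids, ranged from 4.44 to 5.01 and differed by 0.18 ± 0.30.

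Lpin1 encodes lipin 1, the phosphatidate phosphatase that yields diacylglycerol, and read 3.45, 3.61, 3.76 and 4.11. Both knockout arrays were higher, by 0.40 ± 0.26, and its other probes differed by 0.32 and 0.67. Dgat1 and Dgat2 add the last acyl chain. Dgat1 ranged from 1.89 to 3.15, with overlapping groups and a difference of 0.57 ± 0.39, whereas its second probe read 1.79, 2.47, 2.97 and 3.0, higher on both knockout arrays by 0.85 ± 0.32 (unadjusted p = 0.0402; limma adjusted p = 0.936). WT 1 was the low array on both Dgat1 probes, and without WT 1 the first gave 0.11. Dgat2 ranged from 7.09 to 7.59 on its brightest probe with a difference of -0.19 ± 0.28, and its dimmer probes differed by 0.34 and 0.50. Mogat2, the monoacylglycerol acyltransferase best known from the intestine, read 0.34, -0.50, 0.70 and 0.89, higher on both knockout arrays by 0.87 ± 0.36. Pnpla3, a lipid droplet protein with acyl hydrolase activity that is induced by lipogenic signals, ranged from 2.12 to 2.75 and differed by -0.10 ± 0.31.

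Genes with several probes gave a second reading of the same samples. Of the 33 members, 15 had more than 1 probe, 53 probes in all. Among the 20 probes other than the brightest, 19 differences were positive, the median was 0.44, 10 did not overlap with the knockout arrays higher, and 0 with them lower. For the 5794 other probes of all genes, 43.5% of differences were positive, the median was -0.06, and 14.8% lay higher without overlap. Their share lower without overlap is not given here, so the count of 0 lower has no background beside it. Of the 9 members with a negative difference on the brightest probe, Pgd, Fasn, Acsl1, Gpd1 and Dgat2 had other probes, and all 7 of these had positive differences. Srebf1, Taldo1, Scd1 and Pnpla3 had 1 probe each and no second reading. Probes of 1 gene share the RNA sample, so these are repeat readings and not replicates.

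**Figure D2:**
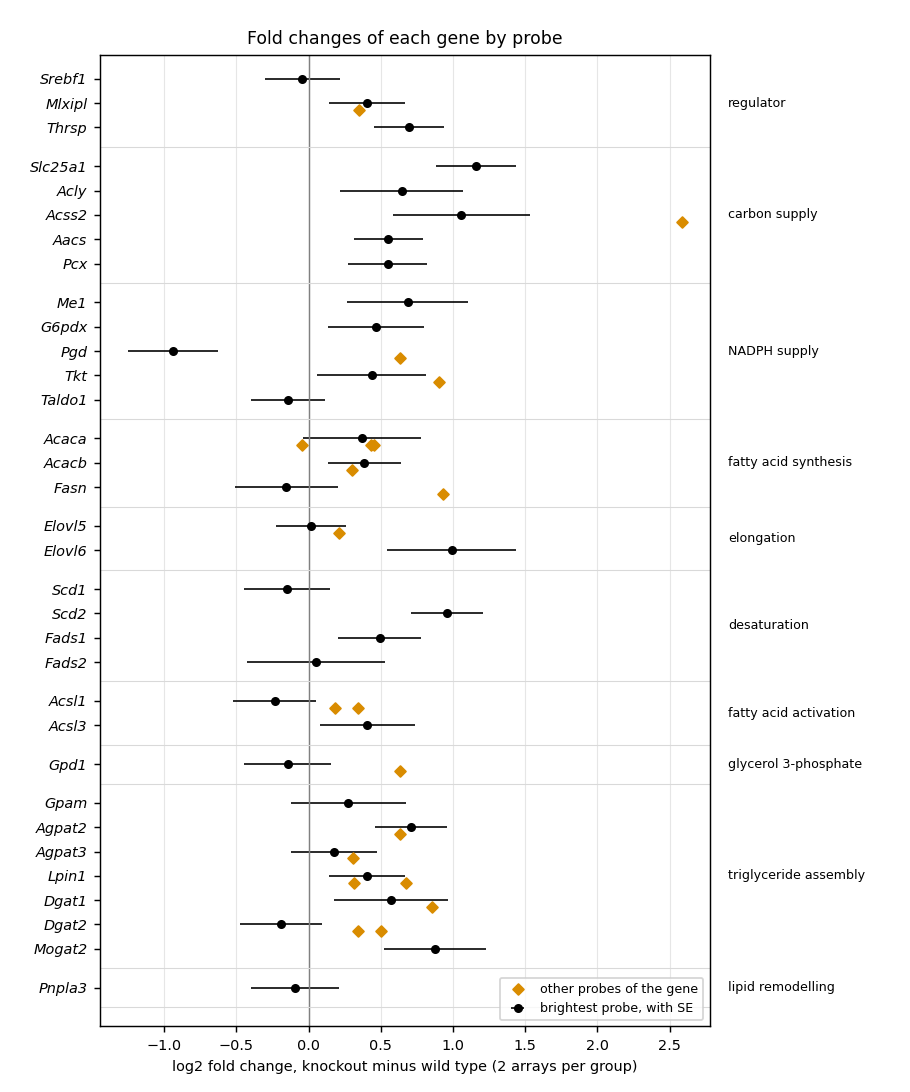
Difference between knockout and wild type (log2, horizontal axis) for each gene, with the brightest probe as a black point with its standard error over 2 arrays per group and every other probe of the gene as an orange diamond. All diamonds but 1, for Acaca, lie right of 0, and for Pgd, Fasn, Acsl1, Gpd1 and Dgat2 they lie on the other side of 0 from the black point.

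Members with the brightest probes differed in sign from the rest. The 6 members whose brightest probe had a mean level above 6 (Fasn, Dgat2, Gpd1, Taldo1, Tkt and Acsl1) had a median difference of -0.15, with Tkt alone positive. All 224 genes in that range had a median of -0.16, and 27.2% were positive. The 14 members between 4 and 6 had a median of 0.51 with 11 positive, and 10 of them lay higher without overlap, against a median of 0.02 and 22.2% for the 904 genes in that range. The 8 members between 2 and 4 had a median of 0.49 with 7 positive, against 0.04 for 2481 genes. All 3 members between 0 and 2 and both below 0 were positive, where 54.3% and 43.1% of all genes were. The share of all genes that was positive did not follow brightness step by step. It was 53.7% to 56.8% in the ranges between 0 and 6, but 43.1% below 0 and 27.2% above 6. The part of brightness in these differences was not tested beyond these values.

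The array WT 2 was low for much of the route. It was the lowest of the 4 arrays for 16 of 33 members, against 20.7% of all genes tested, and knockout 2 was the highest for 15, against 25.7%. Relative to each gene's mean over the 4 arrays, the members averaged -0.07 and -0.27 on the wild-type arrays WT 1 and WT 2, and 0.14 and 0.20 on knockout 1 and knockout 2. The wild-type arrays also lay further apart than the knockout arrays for 23 members, with median gaps of 0.49 and 0.24, whereas over all genes the wild-type gap was the wider for 44.8%, with medians of 0.26 and 0.32. Without WT 2 the median difference of the members was 0.23 in place of 0.40, and 24 differences were positive. Without WT 1 the median was 0.42. Pgd, the 1 member lower on both knockout arrays, differed by -0.90 without WT 1 and -0.98 without WT 2. Its difference was -1.27 without knockout 1 and -0.61 without knockout 2. Of the members with the largest differences, Slc25a1 (0.96), Agpat2 (0.84), Scd2 (0.81) and Thrsp (0.61) changed less without WT 2 than Acss2 (0.53), Mogat2 (0.45), Elovl6 (0.38), Me1 (0.12) and Acly (0.12) did.

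**Figure D3:**
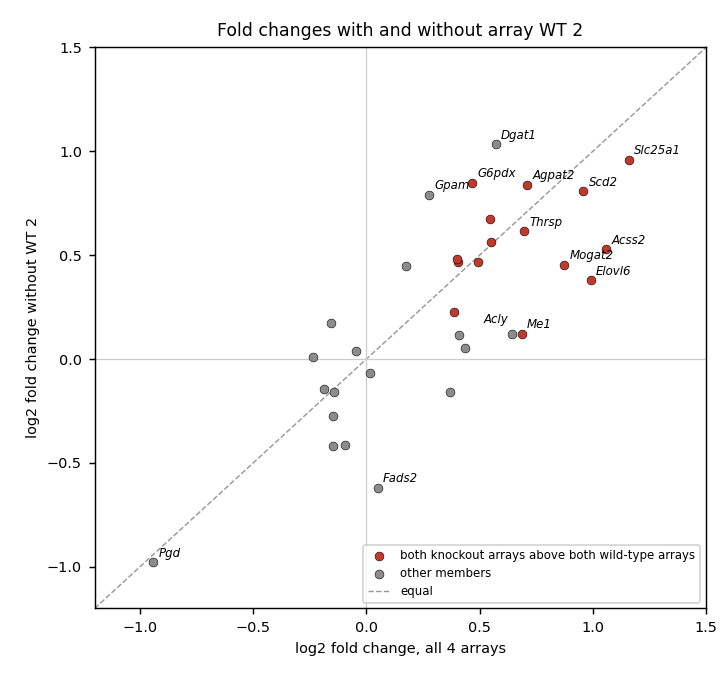
Difference of each gene between knockout and wild type (log2) with all 4 arrays (horizontal axis) and without WT 2 (vertical axis); red points are the 15 genes higher on both knockout arrays, grey points the other members, and the dashed line marks equal values. Me1, Acly and Elovl6 lie far below the line and Dgat1, Gpam and G6pdx above it, while Slc25a1 and Scd2 lie just below it.

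Other genes of lipid metabolism were read from lists of their own. Over all genes tested, 49.3% of differences were positive, 17.8% lay higher and 17.7% lower without overlap. The remaining enzymes of fatty acid synthesis had a median difference of 0.11 (-0.01 without WT 1, -0.03 without knockout 1) over 13 genes tested of 19, with 9 positive, 3 higher and 2 lower without overlap. They included the elongase Elovl7 at -0.96 ± 0.32, the enoyl reductase Tecr at 0.64 ± 0.26 and the mitochondrial malonyltransferase Mcat at 0.53 ± 0.24. The remaining enzymes of triglyceride assembly had a median of -0.15 (0.02 with median scaling, 0.18 without knockout 1) over 16 of 17, with 6 positive, 3 higher and 5 lower. Among them the synthetase Acsl4 differed by -1.28 ± 0.37, Mogat1 by 0.72 ± 0.36 and the seipin gene Bscl2 by 0.61 ± 0.31. The remaining suppliers of carbon and NADPH had a median of 0.20 (0.04 without WT 2 or without knockout 2) over 18 of 20, with 11 positive, 8 higher and 3 lower. Here the glycolytic aldolase Aldoc differed by -1.73 ± 0.39 and the dicarboxylate carrier Slc25a10 by 0.74 ± 0.28. Pdha1, a subunit of pyruvate dehydrogenase, differed by 1.40 ± 0.68, with 6.14 on knockout 2 and 3.59 to 4.08 elsewhere.

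The upstream regulators of lipogenesis had a median of 0.03 over 21 of 23 genes, with 12 positive, 6 higher and 1 lower. The shares over all genes tested were 49.3% positive, 17.8% higher and 17.7% lower. Insig1, which holds SREBP in the endoplasmic reticulum and is itself an SREBP target, differed by 0.62 ± 0.33. Mlx, the partner of ChREBP, differed by 0.50 ± 0.24 and the insulin pathway kinase Akt2 by 0.48 ± 0.27. Cholesterol synthesis, which SREBP factors also control, had a median of 0.53 over 19 of 20 genes, with 16 positive. Of these genes, 14 lay higher and 0 lower without overlap (background 17.8% and 17.7%). An unadjusted limma p under 0.05 was reached by 6 that were higher (background 1.14%). Its leading genes were Nsdhl (1.23 ± 0.26), Fdps (0.87 ± 0.28) and Mvd (0.80 ± 0.30). Lipolysis had a median of 0.31 (0.06 without WT 1 or without knockout 1) over 9 of 10, with 5 positive, 3 higher and 0 lower, led by the triglyceride lipase Pnpla2 (0.53), the hormone-sensitive lipase Lipe (0.44) and the lipid droplet coat Plin1 (0.38). Fatty acid oxidation had a median of -0.03 (0.14 with median scaling) over 16 of 16, with 7 positive, 3 higher and 1 lower, led by Ehhadh (0.68), Hadha (0.52) and the coactivator Ppargc1a (-0.41). In limma no gene of these lists passed after adjustment. Like the members, the cholesterol genes were low on both wild-type arrays, at -0.20 and -0.27 relative to their 4-array means, and high on both knockout arrays, at 0.27 and 0.20.

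Cell type markers were set beside the members because fat cells, milk-producing cells and epithelium all express the route. The 8 white adipocyte markers had a median difference of -0.20, or 0.03 with quantile normalization and 0.09 without WT 2. Without overlap, 0 were higher and 1 lower (background 17.8% and 17.7%). Adipoq read 6.71, 7.28, 6.69 and 6.75, and Lep, the gene for leptin, differed by 0.59 ± 0.54. Over the 7 of these markers with a value on every array, the mean relative to the 4-array mean was -0.26 on WT 1 and 0.28 on WT 2, where the members averaged -0.07 and -0.27. On this scale WT 2 had the highest adipocyte marker level and the lowest level of the members. Summed signals, which the brightest probes dominate, did not put WT 2 lowest for the members: in multiples of the 75th percentile they were 1357, 1429, 1352 and 1669. Members minus adipocyte markers came to 0.19, -0.55, 0.17 and 0.19 in the usual array order, so that WT 2 alone stood apart. The summed level of the same 7 white adipocyte markers was 670 and 897 in the wild-type group and 592 and 728 in the knockout group. For the 7 brown adipocyte markers the median was -0.21, or 0.01 with normexp background correction and -0.04 without knockout 1, and the sum 440 to 520 against 380 to 517 (Ucp1 -0.42 ± 0.25, Cidea -0.21 ± 0.27).

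Milk markers had lower sums on both knockout arrays, and epithelial markers were low on knockout 2. The 9 luminal markers had a median of -0.36 with 8 negative, or -0.06 without knockout 2 (Krt8 -0.36 ± 0.30, Krt18 -0.39 ± 0.35) and sums of 104 to 140 against 78.2 to 124. The 7 basal markers had a median of -0.32, or -0.05 without WT 1 and 0.37 without knockout 2 (Krt14 -0.35 ± 0.54, Krt5 0.05 ± 0.47) and sums of 58.0 to 72.1 against 48.0 to 61.8. All 10 milk markers were negative with a median of -1.13, and 6 were lower without overlap (background 17.7%). Their sums were 123 to 247 against 73.6 to 76.9. Csn2, beta-casein, read 5.29, 3.26, 0.10 and 0.67, a difference of -3.88 ± 0.69, and Csn1s1, another casein, differed by -3.31 ± 0.84 (limma adjusted p = 0.936 for both). Lymphocyte markers stood out on knockout 2 alone, with T cell sums of 13.9 there and 0.565 to 0.722 elsewhere. On knockout 2 the B cell marker Ms4a1 reached 3.26, and the T cell markers Cd3d and Cd3e reached 2.49 and -0.86, where no other array was above -2.44 for any of them. The proliferation markers separated replicates 1 from 2 in both groups, with sums of 21.2, 4.06, 13.8 and 4.94 (Mki67 2.80, 0.49, 2.24 and 0.61; Top2a -0.13 ± 0.96). Macrophage markers had a median of -0.47 (-0.15 without WT 2) with sums of 11.8 to 18.9 against 11.7 to 12.2 (Adgre1 -0.47, Csf1r -0.18). Muscle had a median of -0.39 (-0.12 without knockout 1) with sums of 634 to 648 against 423 to 633 (Acta1 -0.39, Ckm -0.06), and endothelium -0.46 with sums of 14.4 to 15.9 against 11.2 to 11.7 (Pecam1 -0.24, Cdh5 -0.46). The part of these cell types in the members' differences was not tested. For the lymphocytes, the members' median difference was 0.35 without knockout 2.

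**Figure D4:**
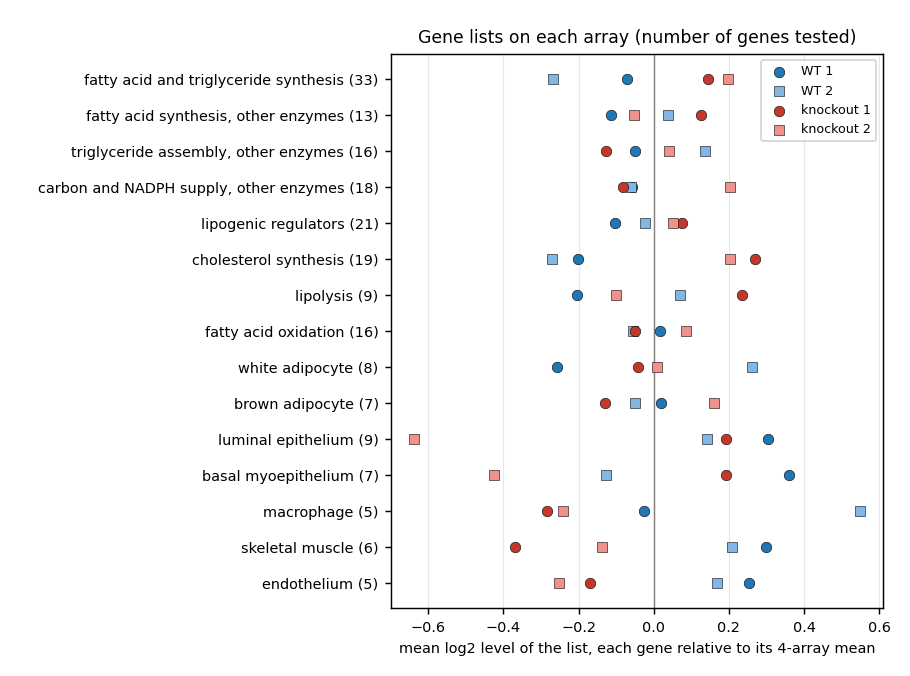
Mean log2 level of gene lists on each array, every gene relative to its own mean over the 4 arrays (horizontal axis). The number of genes tested is in brackets, and the milk, B cell, T cell and proliferation lists are not drawn. Blue marks are wild type, red marks knockout, circles replicate 1 and squares replicate 2. The members, the lipogenic regulators and the cholesterol genes have both red marks right of both blue marks, whereas the white adipocyte list has its lowest mark on WT 1 and its highest on WT 2.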

How the data were processed

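Total RNA from 4 mammary gland samples was hybridised to 1-colour Agilent arrays. The authors deposited each array's spot intensities; the processed signal intensity is background-subtracted by Agilent Feature Extraction (11.5.1.1 per the file headers, 10.7.3.1 per the submitters' processing notes). A log2 table that the authors deposited beside them matched quantile-normalized log2 signals centred on each probe's median (Pearson r from 0.999992 on each array). The column medians of that table were -0.0178, 0.0184, 0.00604 and -0.00977. It served as an alternative.

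From these files, log2 processed signals were scaled by subtracting the 75th percentile of the array (191, 144, 291 and 160). Controls and outlier-flagged spots (35 to 73 an array) were dropped; no spot was saturated. RefSeq accessions named 27816 of 41174 probes with 1 gene each (18952 genes) and left 13358 unnamed. A probe entered the test if both arrays of either group were well above background. The test was limma 3.58.1 in R 4.3.3 (lmFit, eBayes), with p-values adjusted by Benjamini-Hochberg across every probe tested and called at 0.05. The script was checked on simulated data. The members, the gene lists, the tests and the rule for named genes were chosen with earlier results of these data known. That rule names every member, gives all 4 values where groups do not overlap, where an unadjusted p is under 0.05, for Srebf1, Mlxipl, Acaca, Fasn, Acly and Scd1, and for the widest gap within a group. It adds up to 3 genes of each pathway list by size of difference, the first 2 of each marker list, and other probes that differ by over 0.5. One marker gene under that rule is not reported here. Some other probes and repeated genes outside it were named after their values were seen. Plin1 and Cidea each stand in 2 lists. One marker, Cfd, had a flagged spot on WT 1, so its fit dropped that array. The deviations of WT 1 and knockout 1 from their group means correlated at 0.06 over the tested probes. With 2 arrays per group the other pair mirrors this value, so it is 1 comparison and cannot settle a pairing. The samples were not treated as paired. The files held no mean signal column, so the normexp alternative (offset 50) used the median signal and was chosen after seeing the data. The other alternatives were median scaling, quantile normalization, 2 other filters on dim probes, an intensity trend, flagged spots kept, the replicate block, the mean over a gene's probes and leaving out each array. Signal over background and the number of arrays limit the precision.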

Additional observations from a re-analysis of the deposited data

How the results depend on the processing

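No member passed the adjusted threshold under any of the 14 alternatives. With all arrays kept, 307 of 330 recomputed member differences had the same sign and 23 turned. Many of these could not turn. The 2 other filters on dim probes, the intensity trend and the replicate block leave every member's difference as it was. The mean over a gene's probes can change only members with more than 1 probe, and the authors' table nearly repeats quantile normalization. With 1 array left out, 115 of 132 had the same sign and 17 turned. The members' median difference was 0.40, or 0.58 with median scaling. That scaling adds the same amount to the difference of every gene with a value on every array. It took the all-gene median from -0.01 to 0.17. The members' distance of 0.41 above that median could therefore not change, and it is no separate check. Leaving out 1 array gave medians of 0.23 to 0.42, the lowest without WT 2. Positive differences numbered 24, and 24 to 30 under the alternatives. Under median scaling Srebf1 (0.13), Taldo1 (0.03), Fasn (0.02), Scd1 (0.02), Gpd1 (0.03) and Pnpla3 (0.08) turned positive. Quantile normalization turned Fasn (0.11), Srebf1 (0.004) and Taldo1 (0.003) positive and Elovl5 (-0.02) negative. The mean over a gene's probes turned Fasn (0.39), Gpd1 (0.24), Dgat2 (0.22) and Acsl1 (0.10) positive.

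The 15 members higher without overlap became 15 to 18, where the 2347 genes in all became 2186 to 2665 (2633 under median scaling), and the 1 lower became 0 with the mean over a gene's probes. The 4 members higher at an unadjusted p under 0.05 became 7 under median scaling, 8 with normexp on the median signal, 9 with an intensity trend and 2 with no filter on dim probes, and 0 to 7 with 1 array left out. The 1 lower became 0 under median scaling, with no filter and with the mean over probes, and 0 to 1 with 1 array left out. These counts rest on 2 arrays per group and say little about single genes. Where an array was left out, the lone sample was assumed to vary like the other group.

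Over all genes, 0 passed in limma, with 150 higher and 318 lower at an unadjusted p under 0.05, and 5 passed, all lower and none a member, under median scaling. The 150 became 283 under median scaling, 242 with quantile normalization and with the authors' deposited table, 260 with normexp, 65 with no filter, 244 with an intensity trend, and 135 to 476 with 1 array left out. The 318 became 135 under median scaling, 489 with no filter, and 200 to 862 with 1 array left out. The 2340 genes lower without overlap became 1024 under median scaling and 4350 with no filter. The replicate number was also used as a block, a pairing that these arrays cannot settle. In that fit 3 members were higher and 1 lower at an unadjusted limma p under 0.05, and after adjustment 0 passed. The all-gene counts of that fit are not given here, so these member counts have no background beside them. The members' median difference stayed 0.40. The causes of these shifts were not tested. Signal over background limits the dim probes, such as those for Gpam and Fads2.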
